A study of Mus musculus with 24 samples.

Results

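The respiratory chain passes electrons from NADH and succinate to oxygen across the inner mitochondrial membrane. Complex I (NADH dehydrogenase) and complex II (succinate dehydrogenase) feed electrons in, complex III (the cytochrome bc1 complex) hands them to cytochrome c, and complex IV (cytochrome c oxidase) reduces oxygen. Complex II is encoded wholly in the nucleus and is also an enzyme of the citric acid cycle, whereas the other complexes combine nuclear-encoded subunits with a few made from mitochondrial DNA. In the lens, the epithelium keeps its mitochondria, and fiber cells lose theirs with the other organelles as they mature, so mitochondria are found in the epithelium and in the outer, younger fibers.

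The genes described here are the nuclear-encoded subunits of these complexes, chosen by name. They are the genes whose symbols follow the patterns for complex I (Nduf followed by a, b, c, s or v and a number), complex II (Sdha to Sdhd), complex III (Uqcr) and complex IV (Cox4 to Cox8 with a letter), and that had a count of 10 or more in at least 4 of the 24 libraries. Of 24415 gene identifiers in the table, 63 had such a name and 59 passed the count rule: 35 of complex I, 4 of complex II, 8 of complex III and 12 of complex IV. Ndufa4 carries a complex I name and is counted with complex IV, since its protein is a subunit of cytochrome c oxidase. The 4 genes left out were Cox6a2, the striated-muscle form of that subunit, with at most 3 counts in a library, Cox8b with at most 5, Cox7b2 with at most 1, and Cox8c with 0 counts in every library. The members just inside the rule were Cox7a1, with 0 to 13 counts and 8 libraries at 10 or more, and Cox6b2, with 0 to 230 counts and 15 such libraries. The mitochondrially encoded subunits were not analysed here.

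RNA was sequenced from the lenses of C57BL/6 mice, with 4 libraries in each of 6 groups. The groups were LEGSKO mice given buthionine sulfoximine (LEGSKO+BSO), LEGSKO mice without treatment, and untreated wild-type (WT) mice, each as cortical fiber cells and as lens epithelia. LEGSKO mice cannot complete glutathione synthesis in the lens because the gene of the catalytic subunit of its first enzyme, Gclc, is deleted there, and BSO inhibits the same enzyme in any cell it reaches, and the labelled deficiency is mild in LEGSKO and severe with BSO. The sources used here do not give the driver of the deletion, the dose of BSO, the age of the animals or whether each library is 1 animal, so p-values measure the spread between these libraries, which may be partly technical. A count over a whole gene does not check the deletion, and the 2 deficient groups are compared with the same WT libraries.

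Libraries held 19.3 to 46.6 M counts (M, 1e+06), and the LEGSKO+BSO fibers, with 39 to 46.6 M, were the deepest group. Crystallins took 27.6% to 50.1% of the counts in fibers and 7.07% to 14.7% in epithelia. The highest share was in WT fibers 1, which stands apart from the other WT fiber libraries: it had the highest level in its group for 51 of the 59 subunit genes. Of the lens markers, 9 of 10 fiber markers were higher in WT fibers than in WT epithelia, and 7 of 8 epithelial markers were lower there, all but Sfrp1, although the 8 summed to 2370 to 2900 CPM (counts per 1e+06 of the library's total count times its TMM factor) in fibers and 2600 to 2850 CPM in epithelia. Fiber markers summed to 205000 to 434000 CPM in fibers and 18300 to 34500 CPM in epithelia. Summed cornea and conjunctiva markers reached 1990 to 2740 CPM in LEGSKO+BSO epithelia, 1540 to 2200 CPM in LEGSKO epithelia and 561 to 1420 CPM in WT epithelia, against at most 101 CPM in a fiber library. Summed retinal markers ranged from 14.5 to 86.5 CPM in LEGSKO+BSO epithelia, from 19.5 to 217 CPM in LEGSKO epithelia and from 52.9 to 280 CPM in WT epithelia, and were 6.31 to 55 CPM in fibers. Pigment cell markers summed to at most 25.5 CPM in any library, and immune, red blood cell and blood vessel markers to at most 13, 8.98 and 5.23 CPM. All levels are CPM on this TMM scale, which sets the typical gene equal between libraries.

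The promoters of these genes are shown first. The part of their motifs in the tissue differences given below was not tested. RefSeq promoters (GRCm38.p6, 250 bases before and 50 after the start of the gene) were matched for 50 of the 59 members. The NRF1 motif, GCGCA and GCGC with any 1 base between them, was found on either strand in 11 of the 50 members (22%) and in 5.19% of the 27025 genes with a RefSeq promoter, whether or not they are in the count table; NRF1 is a factor known to act on respiratory genes. The motif CCGGAAG of ETS factors such as GABP was found in 11 members (22%) and in 9.93% of all genes, and the YY1 motif AAGATGGCG in 5 members (10%) and in 1.64% of all genes. The ERR motif TCAAGGTCA was found in 1 member, Sdhd, and in 0.466% of all genes. The median GC content was 58.3% over the members' promoters and 52.7% over all promoters. A match is only a match of letters. The promoters below belong to the members with the largest rise and the largest fall in WT fibers among those matched, Cox7c and Cox6b2, and to the most raised member with an NRF1 match (Ndufa6), with an ETS match (Ndufb7) and with a YY1 match (Ndufs6). Capitals mark the matches: NRF1 in Ndufa6, ETS in Ndufb7, and NRF1 followed by YY1 in Ndufs6. None of these motifs was found in the windows of Cox7c and Cox6b2.
Cox7c, chr13:86046746-86047045, minus strand: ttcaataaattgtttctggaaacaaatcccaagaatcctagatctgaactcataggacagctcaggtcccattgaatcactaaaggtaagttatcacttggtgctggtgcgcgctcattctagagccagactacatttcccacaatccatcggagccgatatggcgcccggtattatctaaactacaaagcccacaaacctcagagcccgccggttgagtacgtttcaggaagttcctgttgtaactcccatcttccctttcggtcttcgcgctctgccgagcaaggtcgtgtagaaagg
Cox6b2, chr7:4753045-4753344, minus strand: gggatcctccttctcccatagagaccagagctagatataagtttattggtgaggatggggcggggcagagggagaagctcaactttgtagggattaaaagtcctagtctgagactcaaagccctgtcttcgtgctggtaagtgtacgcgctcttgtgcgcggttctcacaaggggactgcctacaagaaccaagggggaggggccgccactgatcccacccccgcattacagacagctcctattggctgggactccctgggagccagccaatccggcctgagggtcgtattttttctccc
Ndufa6, chr15:82354242-82354541, minus strand: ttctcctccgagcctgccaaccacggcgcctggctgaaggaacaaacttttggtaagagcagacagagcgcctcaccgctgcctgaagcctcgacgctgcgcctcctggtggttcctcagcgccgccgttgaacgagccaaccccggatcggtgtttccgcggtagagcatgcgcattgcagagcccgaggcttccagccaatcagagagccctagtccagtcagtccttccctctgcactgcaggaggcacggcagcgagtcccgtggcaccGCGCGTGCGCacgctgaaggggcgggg
Ndufb7, chr8:83566508-83566807, plus strand: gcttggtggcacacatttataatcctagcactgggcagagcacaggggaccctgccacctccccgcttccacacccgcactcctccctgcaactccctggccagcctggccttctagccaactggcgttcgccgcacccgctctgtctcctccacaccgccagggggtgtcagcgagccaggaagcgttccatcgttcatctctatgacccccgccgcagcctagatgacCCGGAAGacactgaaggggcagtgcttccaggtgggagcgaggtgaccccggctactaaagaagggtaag
Ndufs6, chr13:73328433-73328732, minus strand: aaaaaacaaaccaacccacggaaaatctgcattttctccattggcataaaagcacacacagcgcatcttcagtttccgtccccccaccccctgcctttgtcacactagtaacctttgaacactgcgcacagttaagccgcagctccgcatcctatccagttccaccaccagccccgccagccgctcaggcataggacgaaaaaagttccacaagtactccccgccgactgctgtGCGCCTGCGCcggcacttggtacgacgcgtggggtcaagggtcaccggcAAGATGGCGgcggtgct

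After TMM scaling, respiratory chain mRNA was higher in cortical fibers than in the epithelium, for nearly every subunit of complexes I, III and IV, while complex II was mixed. Scaling by total counts gave fewer higher members, as described below. The summed level of the 59 genes was 5002 ± 186 CPM in LEGSKO+BSO fibers against 1604 ± 180 CPM in LEGSKO+BSO epithelia, 5320 ± 674 CPM in LEGSKO fibers against 1877 ± 77.9 CPM in LEGSKO epithelia, and 5467 ± 1060 CPM in WT fibers against 1713 ± 138 CPM in WT epithelia (SD, n = 4 each). No fiber library overlapped an epithelial one in this sum, since the lowest fiber library held 4696 CPM and the highest epithelial one 1952 CPM; WT fibers 1 held 7048 CPM. The study itself compared only libraries of the same tissue; the comparison of tissues was added here and fitted over all 24 libraries. Summed muscle and stroma markers were also higher in fibers, at 742 to 1130 CPM against 97.8 to 163 CPM in epithelia, although Myl1, Dcn and Lum were at 0 in every fiber library and 4 to 7 of the 14 markers were at 0 in each fiber group; their part in the result was not tested. In these bulk samples, a change in the number of cells of a type cannot be told apart from a change in the RNA per cell.

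**Figure D1:**
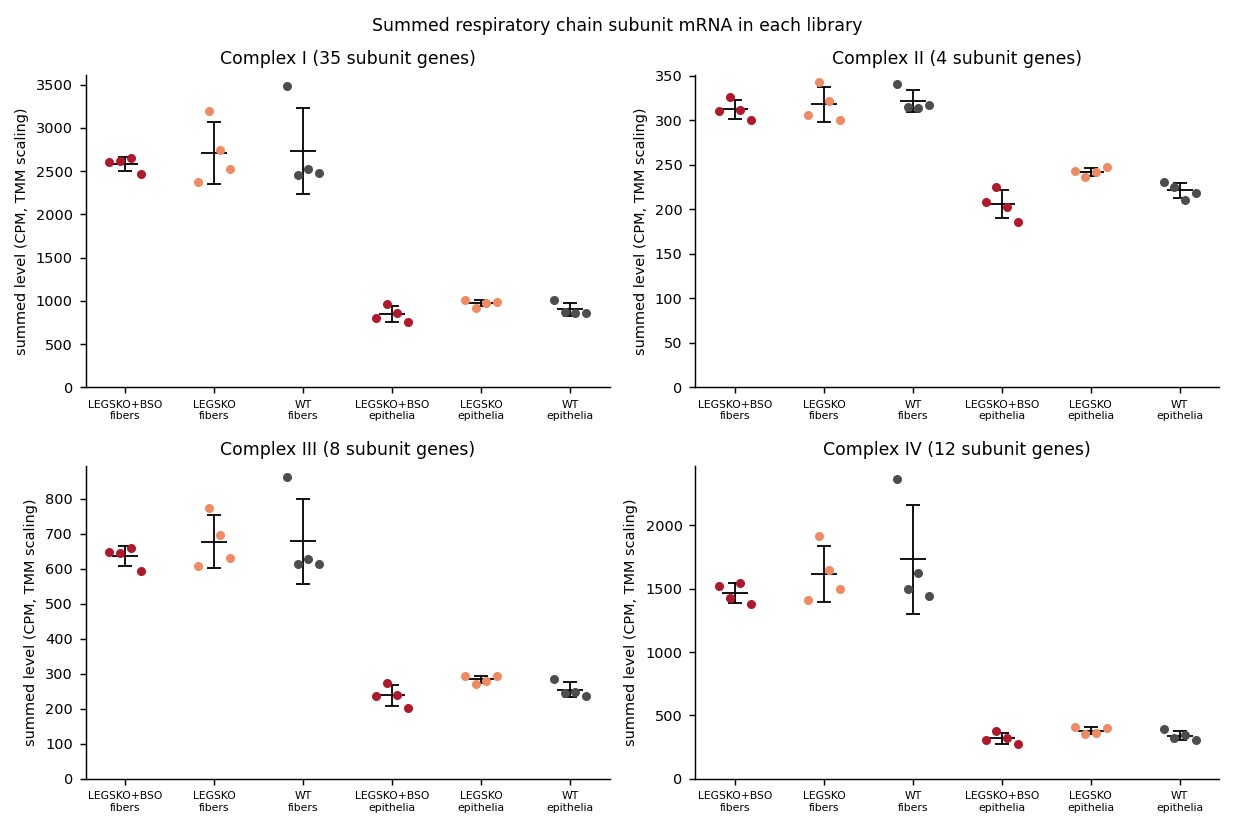
Summed level of the subunit genes of each complex (CPM after TMM scaling) in every library, by group; points are libraries, and the line and bars are the mean and SD of 4. Fiber libraries lie above all epithelial ones in each panel, with complex IV at 1732 CPM in WT fibers and 339 CPM in WT epithelia on average and complex II at 322 CPM and 221 CPM.

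Member by member, 57 of 59 passed the test between WT fibers and WT epithelia (adjusted p below 0.05, edgeR quasi-likelihood test, Benjamini-Hochberg over all genes), of which 54 were higher and 3 lower in fibers. Over all 15560 genes tested, 76.4% passed, 37% as higher and 39.4% as lower. The median log2 change was 1.56 for the members, a 2.95-fold difference, and -0.0863 for all genes. In 45 members the difference was 2-fold or more upward, against 20.8% of all genes. Between LEGSKO+BSO fibers and epithelia, 53 members were higher and 4 lower (78.9% of all genes passed, 38.1% higher and 40.8% lower), with a median log2 change of 1.65. Between LEGSKO fibers and epithelia, 50 were higher and 3 lower (75.8% of all genes passed, 36.8% higher and 39% lower), with a median of 1.5. These 3 comparisons use different libraries, and the same 50 members were higher in each. Ndufs1, Sdhc and Cox6b2 were lower in each. In LEGSKO+BSO, LEGSKO and WT, 54, 52 and 51 members had all fiber libraries above all epithelial ones (37.4%, 34.9% and 33.3% of all genes). All fiber libraries lay below for 4, 3 and 3 members (38.7%, 36.2% and 34.2% of all genes).

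**Figure D2:**
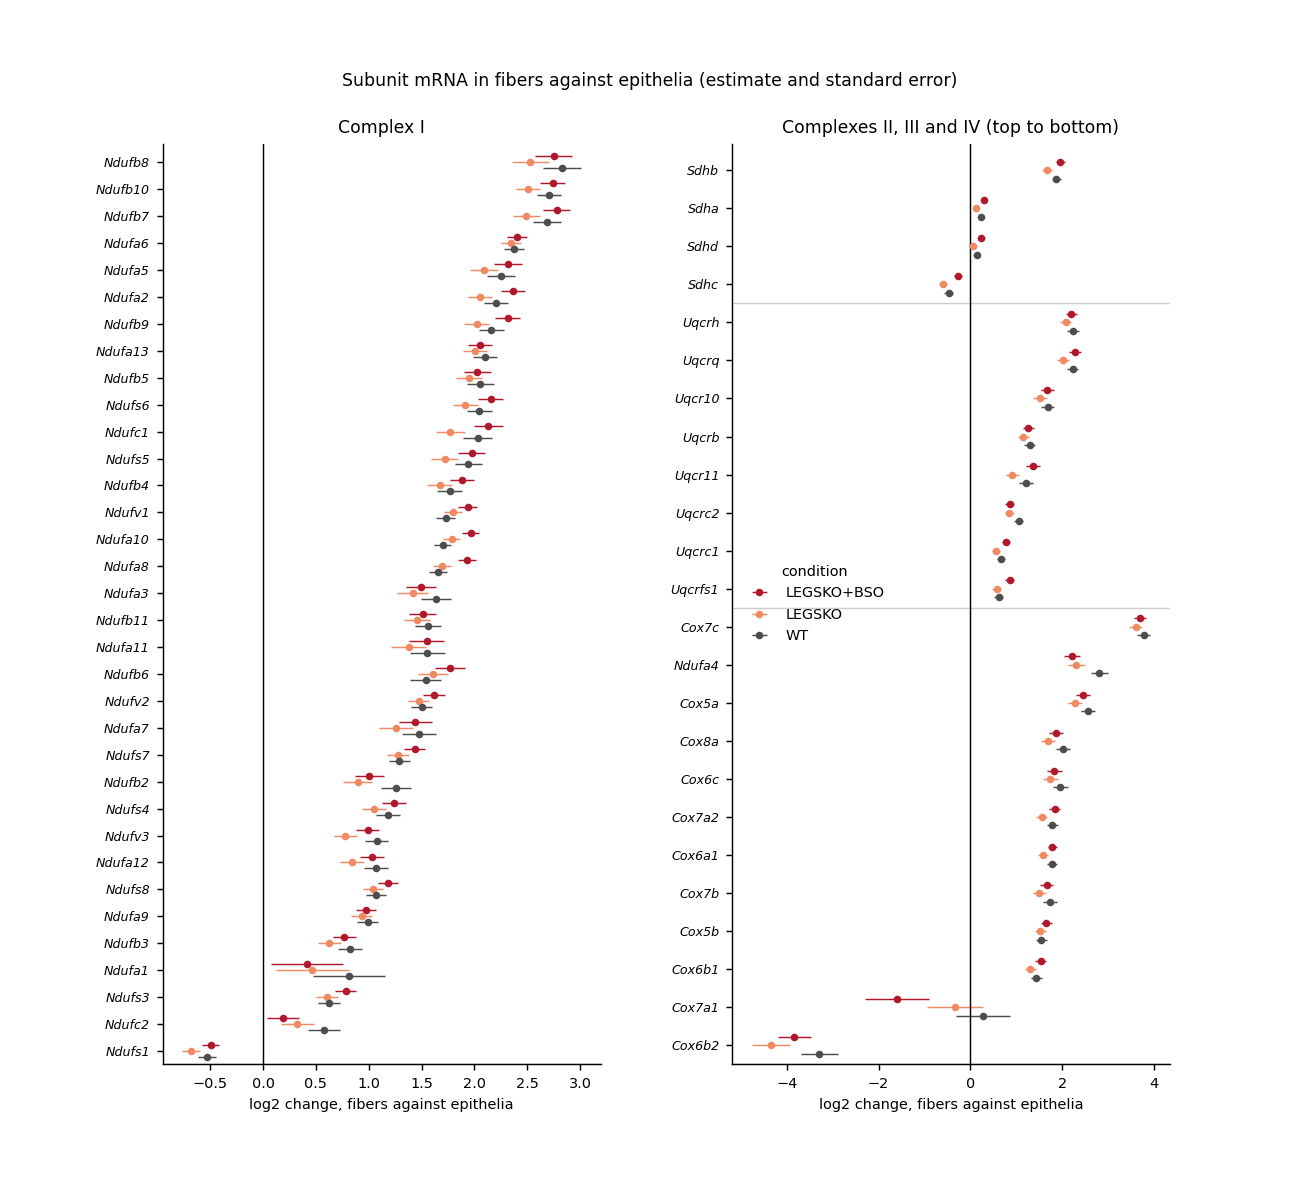
Log2 change of 58 of the 59 subunit genes in fibers against epithelia, with its standard error, in LEGSKO+BSO, LEGSKO and WT lenses. Most points lie to the right of 0 in all 3 conditions, from 3.78 for Cox7c in WT, while Ndufs1, Sdhc and Cox6b2 lie to the left.

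How the tissues are scaled decides how far this difference goes. The TMM factors were 0.442 to 0.75 in fibers and 1.42 to 1.54 in epithelia. When levels were scaled by the total count alone, 36 members were higher and 12 lower in WT fibers, where 1982 of all 15560 genes were higher and 11462 lower, and their median log2 change was 0.344 where that of all genes was -1.25. LEGSKO+BSO gave 38 higher and 13 lower, where 2299 of all 15560 genes were higher and 11053 lower. LEGSKO gave 34 higher and 16 lower, where 2106 of all genes were higher and 11213 lower. By complex, WT then had 22 higher and 6 lower in complex I, 1 and 3 in complex II, 3 and 2 in complex III and 10 and 1 in complex IV. With crystallins left out of the total, WT gave 46 higher and 6 lower, where 3038 of 15405 genes were higher and 10005 lower, with a median of 0.774 where all genes had -0.841. As a share of all counts, the members took 0.36% in LEGSKO+BSO fibers and 0.241% in LEGSKO+BSO epithelia, and 0.344% in WT fibers and 0.249% in WT epithelia. Complex II alone went the other way by this measure, with 0.0225% in LEGSKO+BSO fibers and 0.0309% in LEGSKO+BSO epithelia, and 0.0208% in WT fibers and 0.0322% in WT epithelia. The members' median thus lay above that of all genes under each scaling, while Ndufs1, Sdhc and Cox6b2 lay below it under TMM and total-count scaling, and the direction of the smaller differences depends on the scaling.

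In complex I, all 28 accessory subunits, which surround the catalytic core, were higher in WT fibers, with a median log2 change of 1.68. The call of Ndufa1 rested on WT fibers 1, as given below. In LEGSKO+BSO and in LEGSKO, 26 of the 28 were called higher, all but Ndufa1 and Ndufc2. With total-count scaling Ndufa1, Ndufb3 and Ndufc2 were lower in WT fibers, where 22 of the 35 complex I members were higher and 6 lower. Of the 7 nuclear-encoded core subunits, 6 were higher in WT fibers after TMM scaling, with a median of 1.07. With total-count scaling, however, the core subunits Ndufv1 and Ndufv2 stayed higher, at 0.589 and 0.321, while Ndufs1 and Ndufs3 were lower, at -1.714 and -0.57. Ndufs7 and Ndufs8 were then not called (adjusted p = 0.409 and 0.307, edgeR). Ndufb10, an accessory subunit of the membrane arm, had 137, 138, 155 and 148 CPM in LEGSKO+BSO fibers against 18.5, 26.5, 22.3 and 19.5 CPM in LEGSKO+BSO epithelia. In WT it had 132, 152, 160 and 164 CPM in fibers against 23.4, 22.8, 24.8 and 22.1 CPM in epithelia. Every fiber library was far above every epithelial one, and the log2 change was 2.71 ± 0.11 in WT (SE; adjusted p = 1.35e-16, edgeR).

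Ndufa6, an accessory subunit whose promoter holds the NRF1 letters above, had the smallest adjusted p of complex I. Its levels were 123, 112, 117 and 110 CPM in WT fibers against 20.7, 22.5, 21.6 and 24.2 CPM in WT epithelia, with a log2 change of 2.38 ± 0.10 (SE; adjusted p = 5.46e-17, edgeR). Its log2 change was 2.40 in LEGSKO+BSO and 2.34 in LEGSKO. Ndufa10, another accessory subunit, was 3.26-fold higher in WT fibers. Ndufb8 had the largest estimate of complex I in WT, 2.83, but its level in WT fibers 1 was 276 CPM against 141 to 146 CPM in the other WT fiber libraries, and without that library the estimate was 2.51.

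The core subunits of the arm that takes up NADH did not move alike. Ndufv1, which binds NADH and the flavin, was higher in WT fibers, with a log2 change of 1.73 ± 0.09 (SE; adjusted p = 5.69e-15, edgeR). Ndufs1, the largest iron-sulfur subunit and the partner of Ndufv1 in electron transfer, was lower. It had 26.7, 26.2, 26.6 and 22.6 CPM in LEGSKO+BSO fibers against 37.1, 38.7, 33.6 and 34.7 CPM in LEGSKO+BSO epithelia, and 31.4, 25.8, 25.1 and 24.3 CPM in WT fibers against 40.2, 39.8, 36.8 and 36.3 CPM in WT epithelia. The fiber libraries all lay below the epithelial ones in both conditions, as for 38.7% of all genes in LEGSKO+BSO and 34.2% in WT. The log2 change of Ndufs1 was -0.53 ± 0.08 in WT (SE; adjusted p = 4.08e-06, edgeR).

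Ndufa1, a small membrane subunit encoded on the X chromosome, rested on a single library. It had 295 CPM in WT fibers 1 and 63.1, 66.7 and 61.1 CPM in the other WT fibers, against 97.4, 55.8, 61.5 and 59.3 CPM in WT epithelia. Its log2 change of 0.81 in WT passed the test with an adjusted p of 0.0351 (edgeR), and without WT fibers 1 it was -0.13 with an adjusted p of 0.520. Without that library, 52 members were higher and 3 lower in WT fibers, with a median log2 change of 1.4.

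The 4 subunits of complex II did not share a direction. Sdhb, the iron-sulfur subunit, had 100, 105, 102 and 98.5 CPM in LEGSKO+BSO fibers against 23.5, 31.8, 26.3 and 22.7 CPM in LEGSKO+BSO epithelia. In WT it had 134, 104, 110 and 97.0 CPM in fibers against 33.3, 30.9, 26.6 and 30.5 CPM in epithelia. Its tissue groups were far apart, and its log2 change was 1.87 ± 0.11 in WT (SE; adjusted p = 3.15e-14, edgeR).

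Sdha, the flavoprotein subunit that oxidises succinate, differed little in the same libraries. It had 144, 157, 145 and 160 CPM in WT fibers against 127, 136, 126 and 126 CPM in WT epithelia, a log2 change of 0.23 ± 0.06 (SE; adjusted p = 0.00209, edgeR). With total-count scaling this change was -0.921, so its direction depends on the scaling. Sdhd, a membrane anchor, had a log2 change of 0.13 that did not pass the test in WT (adjusted p = 0.121, edgeR), and it was higher in LEGSKO+BSO fibers at 0.23 (adjusted p = 0.00733, edgeR), where it too turned to -0.829 with total-count scaling.

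Sdhc, the other membrane anchor, was lower in fibers in every condition. It had 17.1, 18.1, 17.2 and 17.2 CPM in LEGSKO+BSO fibers against 22.8, 22.3, 19.7 and 18.9 CPM in LEGSKO+BSO epithelia, and 19.1, 16.6, 15.97 and 17.0 CPM in WT fibers against 27.5, 22.9, 22.6 and 22.3 CPM in WT epithelia. The groups did not overlap, and 38.7% of all genes in LEGSKO+BSO and 34.2% in WT also had all fiber libraries below the epithelial ones. The log2 change of Sdhc was -0.48 ± 0.09 in WT (SE; adjusted p = 5.05e-05, edgeR). Sdhb and Sdhc, which encode parts of the same complex, thus moved in opposite directions. With total-count scaling the pair kept these directions, at 0.679 and -1.652.

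All 8 members of complex III were higher in fibers in each condition, with a median log2 change of 1.25 in WT. Uqcrh, the acidic hinge protein that helps cytochrome c bind, had 163, 157, 162 and 142 CPM in LEGSKO+BSO fibers against 32.6, 41.5, 35.4 and 26.5 CPM in LEGSKO+BSO epithelia. In WT it had 223, 163, 164 and 154 CPM in fibers against 42.6, 37.7, 34.7 and 34.8 CPM in epithelia, a log2 change of 2.23 ± 0.13 (SE; adjusted p = 5.18e-14, edgeR). The small subunits Uqcrq and Uqcr10 rose by 2.23 and 1.68, also with no overlap of libraries. The large core proteins and the Rieske iron-sulfur protein rose less, with log2 changes of 1.05 for Uqcrc2, 0.67 for Uqcrc1 and 0.62 for Uqcrfs1 in WT. With total-count scaling Uqcrc1 and Uqcrfs1 were lower in WT fibers, at -0.532 and -0.55, while Uqcrh, Uqcrq and Uqcr10 stayed higher.

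Complex IV held both the largest rise and the largest fall of the chain. Cox7c, a small subunit of the membrane part, had 473, 426, 498 and 417 CPM in LEGSKO+BSO fibers against 31.6, 42.2, 35.4 and 30.8 CPM in LEGSKO+BSO epithelia. It had 433, 611, 511 and 491 CPM in LEGSKO fibers against 49.6, 37.9, 38.8 and 42.5 CPM in LEGSKO epithelia. In WT it had 672, 479, 506 and 460 CPM in fibers against 40.8, 39.99, 40.7 and 32.9 CPM in epithelia. The lowest fiber library was thus well above the highest epithelial one in every condition, and the WT log2 change was 3.78 ± 0.14, a 13.7-fold difference (SE; adjusted p = 1.60e-17, edgeR).

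Ndufa4 rose by 2.81 ± 0.18 in WT fibers, where WT fibers 1 held 404 CPM and the other libraries 186, 198 and 179 CPM, against 40.3, 32.7, 34.7 and 30.0 CPM in WT epithelia. Without WT fibers 1 the log2 change was 2.42 with an adjusted p of 1.42e-16 (edgeR). Cox5a, a subunit on the matrix side, rose by 2.56, and Cox6a1, Cox7a2, Cox7b, Cox8a and Cox6b1 rose by 1.78, 1.78, 1.73, 2.03 and 1.43 in WT. With total-count scaling the WT log2 changes were 1.541 for Ndufa4 and 1.342 for Cox5a. Cox6a1, Cox7a2, Cox7b, Cox8a and Cox6b1 then had 0.574, 0.57, 0.514, 0.83 and 0.225.

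The paired isoforms of complex IV were expressed very unequally. Per kilobase of transcript, Cox6b1, the common form, had 59.3 CPM in LEGSKO+BSO epithelia, where Cox6b2, the form best known from testis, had 9.32 CPM. Cox6b2 was low in fibers. It had 0.338, 0.337, 0.0657 and 0.376 CPM in LEGSKO+BSO fibers against 4.07, 3.95, 3.78 and 4.42 CPM in LEGSKO+BSO epithelia, and 0, 0.417, 0.333 and 0.200 CPM in WT fibers against 2.18, 2.41, 2.02 and 3.71 CPM in WT epithelia. The fitted log2 change was -3.29 ± 0.40 in WT (SE; adjusted p = 6.13e-08, edgeR), with few counts behind the fiber values. Cox6b1 went the other way, from the same libraries, with 108, 74.7, 76.9 and 73.2 CPM in WT fibers against 35.3, 26.8, 32.6 and 28.5 CPM in WT epithelia. Cox7a1, the heart and skeletal muscle form, reached at most 0.666 CPM, with at most 13 counts. Its log2 change of -1.60 in LEGSKO+BSO passed the test with an adjusted p of 0.0372 (edgeR), and the call was lost when any of 6 of these 8 libraries was left out, with adjusted p up to 0.0972. Cox7a2, the common form, had 99.2 to 154 CPM in WT fibers.

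**Figure D3:**
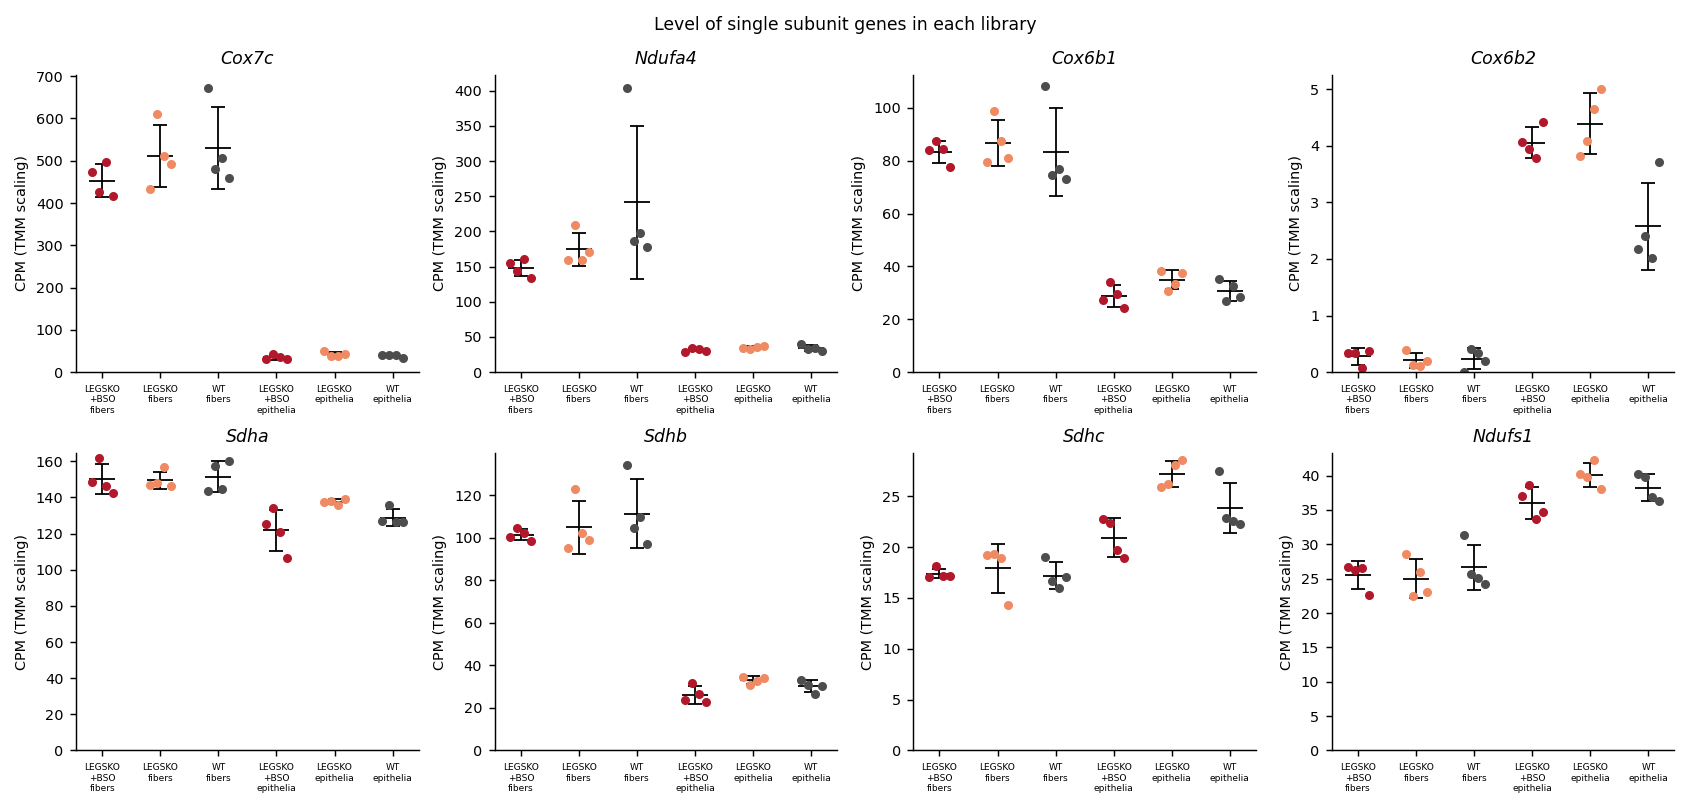
Level (CPM after TMM scaling, linear axes from 0) of 8 subunit genes in every library, by group; points are libraries, and the line and bars are the mean and SD of 4. Cox7c, Ndufa4, Cox6b1 and Sdhb are high in fibers, Cox6b2, Sdhc and Ndufs1 are high in epithelia, and Sdha differs little; WT fibers 1 stands above its group for Ndufa4 at 404 CPM.

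The order of the members also changed between tissues. Per kilobase of transcript, Ndufa1 led in LEGSKO+BSO, LEGSKO and WT epithelia (156, 171 and 163 CPM), followed by Cox8a and Uqcrh. In fibers Cox7c led in all 3 conditions (839, 948 and 980 CPM), followed by Uqcrh or Ndufa4. Sdhc, Cox7a1 and Cox6b2 were the lowest 3 in the fibers of each condition. Reads per gene with short transcripts such as these can be shared with near-identical processed copies elsewhere in the genome, and the rule by which such reads were counted is not given in the sources used here.

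Transcript length moved with the tissue difference. The members' transcripts ran from 382 to 2900 nucleotides, with a median of 704. Over all genes, those under 750 nucleotides had a median log2 change of 1.23 in WT fibers and 66.9% were called higher, while those of 2500 and more had -0.241 and 31.1%. The 32 members under 750 nucleotides had a median of 1.86, and 30 of them were higher. The 8 members of 1500 to under 2500 nucleotides had a median of 1.12, where all genes of that length had -0.0145. Across the 59 members, the log2 change and log2 length gave Pearson's r = -0.277 and Spearman's rho = -0.322, as a description over genes measured in the same libraries. The part of length in the tissue difference was not tested.

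**Figure D4:**
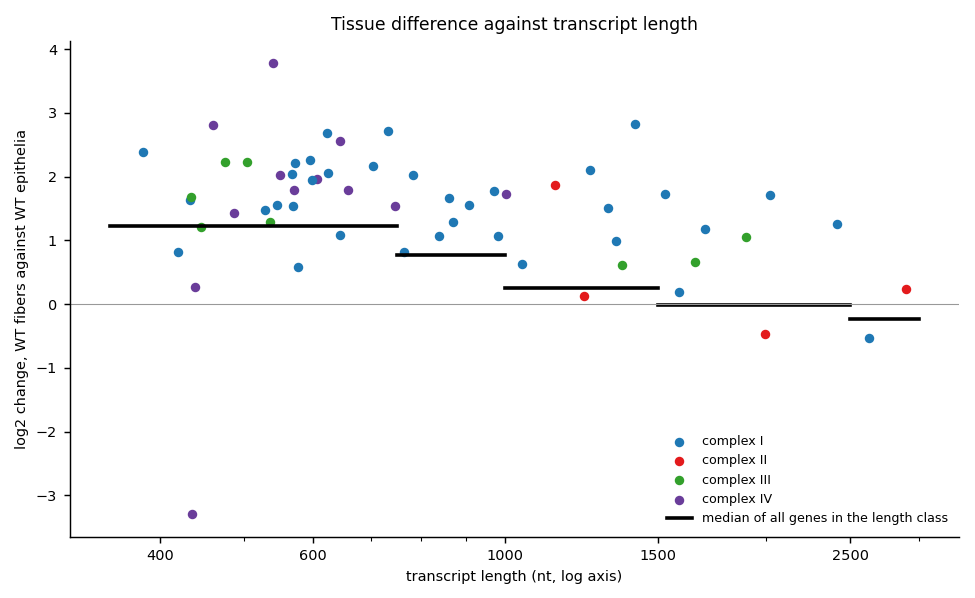
Log2 change in WT fibers against WT epithelia of each subunit gene over its transcript length (nucleotides, log axis), coloured by complex; black lines are the medians of all genes in 5 length classes. The class medians fall to -0.241 in the longest class, against 1.23 in the shortest, and most members lie above the line of their class.

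Other mitochondrial genes were set beside the members, in lists drawn up with earlier results of these data known. The nuclear genes of ATP synthase, which uses the gradient the chain builds, had 16 of 17 higher and 0 lower in WT fibers, with a median log2 change of 1.94. Atp5e was 6.6-fold and Atp5g2 5.29-fold higher. Mitochondrial ribosomal proteins, which make the mitochondrially encoded subunits, had 71 of 78 higher and 2 lower, with a median of 1.26, and Mrpl52 was 7.41-fold higher. Import genes had 22 of 27 higher and 2 lower (median 1.15, Tomm7 5.22-fold), and assembly factors of complexes I, III and IV had 31 of 42 higher and 4 lower (median 0.697, Ndufaf8 6.98-fold). Mitophagy genes, whose products clear mitochondria, had 16 of 19 higher and 2 lower (median 0.95, Gabarapl1 10.9-fold). With total-count scaling only ATP synthase stayed mainly higher, at 13 higher and 2 lower. The ribosomal list split into 27 higher and 27 lower, import into 11 and 9, mitophagy into 5 and 9, and assembly factors into 7 and 23. Under this scaling 1982 of all 15560 genes were higher and 11462 lower in WT fibers.

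Other respiratory chain genes, with names outside the patterns and not all of them subunits, had 7 of 10 higher and 2 lower in WT fibers. Besides subunits, this list holds Cycs (cytochrome c), Cox7a2l, Dmac1, Higd1a and Higd2a. Cox4i1, the common form of a complex IV subunit with an isoform pair, was 8.71-fold higher, and Cyc1, the cytochrome of complex III, was 2.11-fold higher. The 2 that were lower are forms best known from cells short of oxygen: Cox4i2, the partner isoform of Cox4i1, had 0.278 times and Ndufa4l2, a relative of Ndufa4, 0.0806 times its level in WT epithelia. Citric acid cycle genes were mixed, with 11 of 19 higher and 4 lower (median 0.613), Idh3b being 2.98-fold higher. With total-count scaling these lists gave 2 higher and 4 lower, and 1 higher and 15 lower. Of all 15560 genes, 1982 were then higher and 11462 lower.

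Glycolysis genes went the other way. In WT fibers 16 of 18 were lower and 1 higher, Gapdh, with a median log2 change of -1.55. The glucose transporter gene Slc2a1 had 0.126 times its level in WT epithelia, lactate dehydrogenase A (Ldha) 0.0676 times and muscle phosphofructokinase (Pfkm) 0.0977 times. With total-count scaling all 18 were lower. Regulators of mitochondrial biogenesis were mixed, with 6 of 16 higher and 4 lower, where 37% of all genes were higher and 39.4% lower. Yy1, whose motif was searched above, was 1.94-fold higher, and Gabpa, the ETS factor of GABP, was 1.49-fold higher. Nrf1 did not pass (1.18-fold, adjusted p = 0.0855, edgeR). The coactivator gene Ppargc1a had 0.13 times its WT epithelial level. With total-count scaling 13 regulators were lower and 0 higher, where 11462 of all 15560 genes were lower and 1982 higher in WT fibers.

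Within a tissue, edgeR called no subunit in any of the 6 comparisons of glutathione status; the exceptions under other settings are named with their genes. In LEGSKO+BSO against WT fibers 0 of 57 members tested passed (5.52% of all 13436 genes did), and Cox6b2 and Cox7a1 were too low to be tested there. The median log2 change of the members was -0.0688, with 40 of the 57 below 0 where 52.3% of all genes were, and at an unadjusted p below 0.05, 1 was higher and 3 lower, where 10.6% and 10.9% of all genes were. In LEGSKO against WT fibers 0 passed (1.64% of all genes), with a median of -0.00648 and 31 of 57 below 0 (all genes 52.5%), and 2 were higher and 1 lower at an unadjusted p below 0.05 (all genes 7.47% and 7.5%). In LEGSKO+BSO against LEGSKO fibers 0 passed (0.0298% of all genes), with a median of -0.0613, 47 of 57 below 0 (all genes 51%) and 0 at an unadjusted p below 0.05 in either direction (all genes 5.66% and 4.85%). DESeq2's Wald test also called 0 members in each of these fiber comparisons.

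Ndufa4 came nearest to a call in fibers. It had 155, 144, 161 and 135 CPM in LEGSKO+BSO fibers and 160, 209, 159 and 171 CPM in LEGSKO fibers, against 404, 186, 198 and 179 CPM in WT fibers. The LEGSKO+BSO libraries all lay below the WT ones, with a log2 change of -0.70 ± 0.21 (SE; adjusted p = 0.0617, edgeR), and the LEGSKO libraries overlapped WT. Without WT fibers 1 the LEGSKO+BSO change was -0.34 with an adjusted p of 0.0242 (edgeR), so it was smaller and then called; adjusted p was 0.0171 when the fit held all 24 libraries and 0.0284 with no filter on low counts. Uqcrc2 had 103, 99.5, 99.5 and 93.7 CPM in LEGSKO+BSO fibers and 113, 115, 114 and 112 CPM in LEGSKO fibers, against 151, 111, 107 and 108 CPM in WT fibers. Its LEGSKO+BSO libraries were also all below WT, with a log2 change of -0.26 (adjusted p = 0.119, edgeR). Without WT fibers 1 the change of Uqcrc2 was -0.13 (adjusted p = 0.172, edgeR). Ndufa4 and Uqcrc2 were the only 2 members with all LEGSKO+BSO fiber libraries below all WT ones, where 6.76% of all genes tested had that order. The other members with the smallest p were not called: Ndufv3 at -0.23 in LEGSKO+BSO against WT (adjusted p = 0.223, edgeR), and Ndufa10 at 0.20 and Ndufv1 at 0.24 in LEGSKO against WT (adjusted p = 0.186 and 0.234, edgeR). In LEGSKO+BSO against LEGSKO fibers these were Uqcrc2 at -0.19, Ndufb3 at -0.20 and Ndufa6 at -0.15, with adjusted p of 0.502 or more (edgeR). Ndufv1 and Ndufa8 were the only members with all LEGSKO+BSO fiber libraries above all WT ones, where 7.62% of all genes tested had that order. Without WT fibers 1 the median over members was 0.125 in LEGSKO and 0.052 in LEGSKO+BSO against WT fibers, above 0 in place of below it, and Ndufa1 was called higher in both.

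In epithelia, nearly every subunit had a slightly lower estimate in LEGSKO+BSO than in LEGSKO lenses, and no member passed the edgeR test. Of the 59 members, 58 had a log2 change below 0, where 49.7% of all genes did, and the members' median was -0.231, a level 0.852 times that in LEGSKO. By the test 0 passed (0.722% of all 15089 genes did), 33 were lower at an unadjusted p below 0.05, where 10.7% of all genes were, and 0 were higher. The median was -0.205 for complex I, -0.279 for complex II, -0.239 for complex III and -0.257 for complex IV. All genes under 750 nucleotides had a median of -0.171 in the same comparison and those of 2500 and more 0.0256, while the members had -0.232 and -0.146.

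Sdhc had the smallest p of this comparison. It had 22.8, 22.3, 19.7 and 18.9 CPM in LEGSKO+BSO epithelia and 26.0, 26.2, 28.1 and 28.6 CPM in LEGSKO epithelia, against 27.5, 22.9, 22.6 and 22.3 CPM in WT epithelia. Every LEGSKO+BSO library was below every LEGSKO one, with a log2 change of -0.36 ± 0.09 (SE; adjusted p = 0.0684, edgeR). Ndufc1, a small complex I subunit, had 16.7, 19.4, 16.4 and 12.3 CPM in LEGSKO+BSO epithelia against 23.4, 20.4, 22.3 and 21.7 CPM in LEGSKO epithelia (log2 change -0.42, adjusted p = 0.0885, edgeR). Ndufs4, an accessory subunit whose loss causes Leigh-like disease in mice, had 19.5, 20.6, 17.6 and 14.9 CPM in LEGSKO+BSO epithelia against 22.1, 22.1, 22.6 and 24.9 CPM in LEGSKO epithelia (log2 change -0.32, adjusted p = 0.12, edgeR). The libraries of the 2 groups did not overlap for 10 members, all lower, where 8.45% of all genes had that order.

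How many members passed depended on single libraries. LEGSKO+BSO epithelia 2 was the highest of its group for 51 of the 59 members and LEGSKO+BSO epithelia 4 the lowest for 45. Without LEGSKO+BSO epithelia 2, 9 members were called lower, Sdhb, Sdhc, Ndufc1, Ndufb9, Ndufb10, Ndufa10, Uqcrc1, Uqcrh and Cox7a2, and over all 15278 genes 276 were then lower and 166 higher, in place of 60 and 49. The members' median was -0.308 without that library and -0.157 without LEGSKO+BSO epithelia 4. DESeq2's Wald test called 3 on all libraries, Sdhc, Ndufc1 and Sdhb, and over all genes it called 347 lower and 333 higher. In libraries 1 to 4, lens fiber markers summed to 21700, 31500, 22100 and 18300 CPM in LEGSKO+BSO epithelia against 34400, 21400, 20300 and 27300 CPM in LEGSKO epithelia. The 59 members summed to 1548, 1839, 1621 and 1408 CPM in the same LEGSKO+BSO epithelia against 1952, 1779, 1854 and 1925 CPM in LEGSKO epithelia. In both groups the library with the most fiber marker RNA also had the highest sum of members. Cornea and conjunctiva markers summed to 2190, 1990, 2140 and 2740 CPM in LEGSKO+BSO epithelia against 1540, 1830, 1700 and 2200 CPM in LEGSKO epithelia, and retinal markers to 14.5, 25.6, 86.5 and 47.4 CPM against 154, 33.6, 217 and 19.5 CPM. The part of these 3 marker lists in the difference was not tested.

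Against WT epithelia, the median over the members was below 0 in LEGSKO+BSO and above 0 in LEGSKO. Of the 59 members, 53 were below 0 in LEGSKO+BSO and 2 in LEGSKO, where the medians of all genes were -0.00966 and -0.00561. In LEGSKO+BSO 0 of 59 members passed (1.17% of all genes did), with a median log2 change of -0.0977, and 1 was higher and 5 lower at an unadjusted p below 0.05 (all genes 7.48% and 7.31%). In LEGSKO 0 passed (0.842% of all genes), with a median of 0.126, and 5 were higher and 0 lower at an unadjusted p below 0.05 (all genes 7.3% and 6.83%). Both comparisons share the WT libraries, and the comparison of LEGSKO+BSO with LEGSKO shares its libraries with both. WT epithelia 1 was the highest of its group for 50 members.

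The member nearest to a call against WT was Cox6b2. It had 4.07, 3.95, 3.78 and 4.42 CPM in LEGSKO+BSO epithelia and 3.82, 4.09, 4.64 and 5.01 CPM in LEGSKO epithelia, against 2.18, 2.41, 2.02 and 3.71 CPM in WT epithelia. All libraries of both deficient groups were above all WT ones, with log2 changes of 0.66 ± 0.18 in LEGSKO+BSO (SE; adjusted p = 0.0992, edgeR) and 0.75 ± 0.18 in LEGSKO (SE; adjusted p = 0.0736, edgeR). Of all 15089 genes, 3.86% had that order in LEGSKO+BSO and 5.59% in LEGSKO, as did 1 and 3 of the 59 members. DESeq2's Wald test called Cox6b2 in both, with adjusted p of 0.0268 and 0.00968, as the only member; over all genes it called 363 higher and 217 lower in LEGSKO+BSO, and 263 and 200 in LEGSKO. Without WT epithelia 4, the highest WT library, edgeR called it in both, at 0.89 and 0.98. Ndufb2, an accessory subunit of complex I, had 12.3, 13.2, 11.9 and 13.5 CPM in LEGSKO epithelia against 11.8, 9.84, 10.2 and 8.61 CPM in WT epithelia (log2 change 0.32, adjusted p = 0.213, edgeR). Sdhd had 0.19 in the same comparison (adjusted p = 0.226, edgeR), and Ndufs3, a core subunit of complex I, and Ndufc1 had -0.24 and -0.28 in LEGSKO+BSO against WT (adjusted p = 0.254 and 0.265, edgeR).

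**Figure D5:**
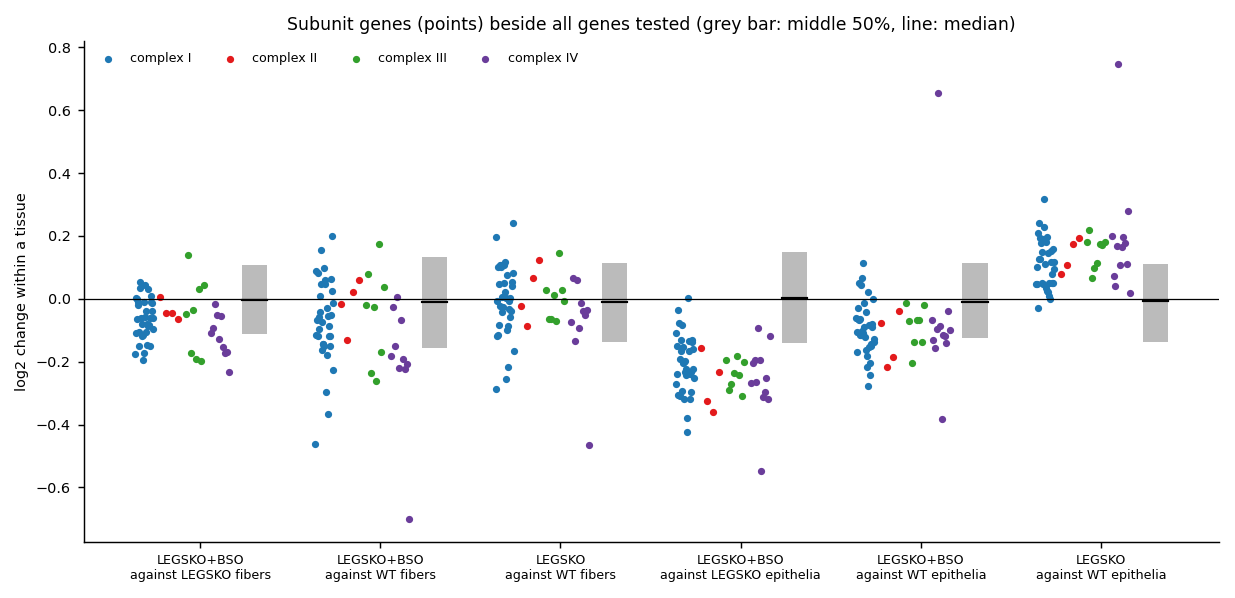
Log2 change of each subunit gene within a tissue in 6 comparisons, coloured by complex, with the middle 50% and the median of all genes tested as a grey bar and line. In LEGSKO+BSO against LEGSKO epithelia the points sit around -0.231 and 58 of 59 lie below 0, while in the fiber comparisons 47 of 57 (LEGSKO+BSO against LEGSKO), 40 of 57 (LEGSKO+BSO against WT) and 31 of 57 (LEGSKO against WT) lie below 0. Against WT epithelia, 53 of 59 lie below 0 in LEGSKO+BSO and 2 of 59 in LEGSKO.

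An interaction term in the fit of the 24 libraries compared the response of fibers with that of epithelia. For LEGSKO+BSO against WT 0 of 59 members passed (0.276% of all genes did), with 2 higher and 1 lower at an unadjusted p below 0.05 (all genes 6.7% and 6.93%). For LEGSKO against WT 0 passed (0.103% of all genes), with 0 at an unadjusted p below 0.05 in either direction (all genes 3.82% and 5.24%). The smallest adjusted p was that of Ndufa4 in both, 0.282 and 0.56 (edgeR). The members' median was 0.0321 for LEGSKO+BSO, with 26 of 59 below 0, and -0.162 for LEGSKO, with 55 of 59 below 0. All genes had medians of 0.00611 and -0.0233. Without WT fibers 1, the members' median in LEGSKO against WT fibers was 0.125, as given above. No interaction was fitted for LEGSKO+BSO against LEGSKO.

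Few genes of the other mitochondrial lists passed within a tissue. No gene of ATP synthase passed in any comparison within a tissue, and its median in LEGSKO+BSO against LEGSKO epithelia was -0.274; the mitochondrial ribosomal list had -0.179 there. Among citric acid cycle and pyruvate dehydrogenase genes, Pdhx, a structural component of the pyruvate dehydrogenase complex, was 2.07-fold higher in LEGSKO+BSO than in WT fibers (adjusted p = 0.000237, edgeR) and 2.12-fold higher in LEGSKO than in WT fibers (adjusted p = 0.000201, edgeR). Mitochondrial ribosomal genes had 3 of 78 higher in LEGSKO+BSO than in WT fibers, Mrps12, Mrps30 and Mrpl34. Of all 13436 genes tested in that comparison, 410 were called higher and 332 lower. The import gene Timm23 and the assembly factor Uqcc3 were 1.29-fold and 1.35-fold higher there. In epithelia Mrps6 was 1.32-fold higher in LEGSKO than in WT and 0.791 times as high in LEGSKO+BSO as in LEGSKO.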

How the data were processed

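The deposited table holds raw counts of reads per gene, made by the authors and keyed by Entrez gene number, for 24 libraries. The build was mm10, and CASAVA 1.8, bcl2fastq, TopHat and DESeq are named per the submitters' processing notes; the sources used here do not give the counting tool, library kit or strand, so overlapping and antisense genes cannot be told apart. Symbols came from the RefSeq gene table (24334 identifiers matched; 81 did not, with 0.914% of counts). Counts were tested with edgeR 4.0.16 (filterByExpr with a minimum count of 10, TMM, quasi-likelihood F test, two-sided, Benjamini-Hochberg over all genes tested, threshold 0.05), on the 12 libraries of a tissue for comparisons within it and on all 24 for tissues and interactions. The test was checked on simulated counts. Named by rule were complex II, the paired isoforms of complex IV, the 3 members of smallest adjusted p in each direction of each complex per tissue comparison, the 3 of smallest p per comparison within a tissue, and at most 3 genes of each other list; the rest were named after their values were seen. The members and lists were chosen with earlier results of these data known. Levels between genes are per kilobase of the median GENCODE M21 coding transcript. Alternatives were DESeq2 1.42.0, RLE scaling, no filter, the crystallins left out, 1 fit of all libraries, a replicate block and each library left out; total-count scalings, with and without crystallins, were added after seeing the data. In no comparison did the deviations of same-numbered libraries correlate above 0.1 in every pair, so numbers were not taken as pairs. The single values of 1 member and of 1 lens marker are not reported here; both are in the counts. No pair of libraries agreed within sampling noise (chi-square over degrees of freedom 5.43 or more).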

Additional observations from a re-analysis of the deposited data

Results flagged for a closer look

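The level of 30 subunit genes named by rule and 5 sums was searched in each of the 6 groups for a library far from the other 3, which gave 29 of 210 values; chance alone gives about 1 in 20. In WT fibers 1 the sum of all members was 7050 CPM (others 4860 to 5090), complex I 3480 (2450 to 2520), complex II 341 (314 to 318) and complex III 861 (612 to 628). Single genes high in that library were Ndufa4 at 404 CPM (others 178 to 198), Uqcrh at 223 (154 to 164), Cox7a2 at 154 (99.2 to 107), Uqcrc2 at 151 (107 to 111), Cox7b at 126 (77.1 to 84.3), Uqcrq at 117 (83.6 to 89.1), Cox6b1 at 108 (73.2 to 76.9), Uqcr10 at 85.1 (47.5 to 51.6), Ndufv3 at 72.2 (55.2 to 55.3) and Ndufb2 at 35.2 (20.6 to 21.1). Ndufv1 was low there, at 73.5 CPM (92.5 to 94.8).

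WT epithelia 1 was high for the sum of all members at 1920 CPM (others 1620 to 1660), complex I at 1010 (859 to 865), Ndufv3 at 31.7 (26.5 to 27.2), Sdhc at 27.5 (22.3 to 22.9) and Uqcrq at 24.4 (18.3 to 19.3). Sdha was high in WT epithelia 2 at 136 CPM (126 to 127), and Cox7c low in WT epithelia 4 at 32.9 (40 to 40.8). Ndufs4 was high in LEGSKO epithelia 4 at 24.9 CPM (22.1 to 22.5).

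In LEGSKO+BSO fibers, Ndufc1 was high in library 1 at 74.9 CPM (69.2 to 69.6) and Sdhc in library 2 at 18.1 (17.1 to 17.2), while Cox6b2 was low in library 3 at 0.0657 (0.337 to 0.376) and Ndufs1 in library 4 at 22.6 (26.2 to 26.7). Sdhc was low in LEGSKO fibers 4 at 14.3 CPM (18.9 to 19.3), and Sdhd in WT fibers 2 at 37.2 (43.4 to 43.9).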

How the results depend on the processing

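Counts of members called in either direction between fibers and epithelia stayed within 1.5 times under every setting tried. With total-count scaling, however, the lower calls were 13 in LEGSKO+BSO, 16 in LEGSKO and 12 in WT, in place of 4, 3 and 3. Over all 15560 genes the lower calls were then 11053, 11213 and 11462, in place of 6349, 6065 and 6131. Leaving out 1 library gave 56 to 57 in LEGSKO+BSO, 53 to 55 in LEGSKO and 55 to 58 in WT. Within a tissue, DESeq2 called 3 in LEGSKO+BSO against LEGSKO, 1 in LEGSKO+BSO against WT and 1 in LEGSKO against WT epithelia. The fit of all 24 libraries called 1 in LEGSKO+BSO against LEGSKO epithelia (Sdhc) and 1 in LEGSKO+BSO against WT fibers (Ndufa4), and in that fiber comparison the lack of a filter and total counts without crystallins also called 1, Ndufa4. Leaving out 1 library gave 0 to 9 in LEGSKO+BSO against LEGSKO epithelia, 0 to 1 in each deficient group against WT epithelia, 0 to 2 in LEGSKO+BSO and 0 to 1 in LEGSKO against WT fibers, 0 to 0 in LEGSKO+BSO against LEGSKO fibers and 0 to 0 in both interactions. The median over members in fibers changed sign with total-count scaling, to 0.113 in LEGSKO+BSO and 0.0891 in LEGSKO against WT and 0.0234 in LEGSKO+BSO against LEGSKO; the medians of all genes moved with it, to 0.137, 0.0594 and 0.0753. With crystallins left out of the total it was 0.0064 in LEGSKO+BSO and 0.0318 in LEGSKO against WT fibers, where all genes had 0.055 and 0.0233. Leaving out 1 library gave -0.121 to 0.052, -0.0722 to 0.125 and -0.108 to 0.000331 for these 3 comparisons. Sdha between tissues turned to -0.76 in LEGSKO+BSO and -0.921 in WT with total counts, and to -0.402 and -0.534 without crystallins in the total; Sdhd in LEGSKO+BSO turned to -0.829 and -0.469, and its call was lost with DESeq2 (adjusted p = 0.0522) and RLE scaling (0.0538). The total-count scalings move the median of all genes as given with the tissue comparison; other causes were not tested. With a replicate block 0 members were called in each comparison within a tissue and in both interactions, and 57, 53 and 57 between tissues in LEGSKO+BSO, LEGSKO and WT, so the block changed no count. Same-numbered libraries correlated at 0.0758 to 0.166 in LEGSKO+BSO and at 0.0693 to 0.267 in WT between tissues, and in LEGSKO+BSO all 4 correlated best with their own number, a hint from the data and not the design. The biological coefficient of variation was 12.8% in fibers and 14.2% in epithelia.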
